A study of Homo sapiens with 4 samples.

Results

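The small nuclear RNA (snRNA) genes of the spliceosome were described in RNA-seq libraries of HaCaT, an immortalised line of human skin keratinocytes. The members were all genes that the deposited annotation types as snRNA, with RN7SK left out, which gave 58 of 44591 genes. Of these, 30 carried a U type in their symbol or description and were grouped by it, and 28 were SNAR genes, which belong to no spliceosome. Of 10 U types searched for, 9 were found. No gene of U2 was among the rows typed snRNA, so U2 was not analysed as a type.

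The study profiled 4 replicates of untreated HaCaT cells, which it calls biological, in 1 group, with no treated or mutant group beside them. Per the labels, the cells were grown in medium with 12% serum at 37 °C and 5% CO2, while the study's methods give a lower serum share, and total RNA was extracted with Trizol and treated with DNase. All 4 libraries come from the same cell line, and how RNA was selected for them is not given in the sources used here. Total counts were 73082279 in replicate 1 and 17056035, 19745170 and 19083836 in replicates 2 to 4, so the first library was 3.70 times as deep as the next. Replicate 1 also stood apart from the other libraries in the snRNA genes themselves, and values are therefore given library by library. All 9 keratinocyte markers examined had more than 3 counts in every library, among them KRT5, KRT14 and TP63.

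snRNAs are short, abundant RNAs of the nucleus that bind proteins to form the snRNPs of the spliceosome, which removes introns from precursor mRNA. In the major spliceosome U1 recognises the 5′ splice site and U2 the branch point, and U4, U5 and U6 join as a tri-snRNP in which U4 and U6 are base-paired. A rare class of introns is removed by the minor spliceosome, where U11, U12, U4atac and U6atac take the places of U1, U2, U4 and U6, and U5 is shared. U7 takes part in the 3′ end processing of histone mRNA and in no splicing. Most snRNAs are made by RNA polymerase II, whereas U6 and U6atac are made by RNA polymerase III, and none of them ends in a long poly(A) tail.

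The sequences of 9 genes are shown because the counts of near-identical copies, and the pairs of types that act together, turn on them. The transcripts of GENCODE release 29 (GRCh38) were matched by gene symbol, which found 29 of the 30 genes with a U type. For U1 the gene RNU1-1 is shown with RNVU1-7, the gene with the most U1 counts. Capitals mark the letters ACTTACCTG, which pair with the 5′ splice site, the letters ATTTGTG, which hold the site of the Sm protein ring, and the only base that differs between both genes (T150C, from RNU1-1 to RNVU1-7, counted from 1 at the 5′ end).
RNU1-1: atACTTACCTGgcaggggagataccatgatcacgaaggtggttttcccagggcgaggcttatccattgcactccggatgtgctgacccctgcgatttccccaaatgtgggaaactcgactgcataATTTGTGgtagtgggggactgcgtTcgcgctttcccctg
RNVU1-7: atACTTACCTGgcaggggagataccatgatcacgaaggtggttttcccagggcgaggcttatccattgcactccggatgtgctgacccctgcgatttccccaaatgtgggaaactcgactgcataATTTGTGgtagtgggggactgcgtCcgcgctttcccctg

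The RNAs of U4 are shown with the 4 bases that differ in capitals, which are T37C, A88G, A99C and T113C from RNU4-2 to RNU4-1.
RNU4-2: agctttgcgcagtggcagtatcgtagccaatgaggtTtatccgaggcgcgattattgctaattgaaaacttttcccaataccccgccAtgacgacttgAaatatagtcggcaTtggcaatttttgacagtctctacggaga
RNU4-1: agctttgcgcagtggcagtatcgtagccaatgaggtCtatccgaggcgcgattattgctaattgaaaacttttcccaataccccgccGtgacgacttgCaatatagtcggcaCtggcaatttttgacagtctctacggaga

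The RNAs of the minor spliceosome and U7 are shown with ATTTTTTG or ATTTTTG, the letters of the Sm site, in capitals where they were found.
RNU11: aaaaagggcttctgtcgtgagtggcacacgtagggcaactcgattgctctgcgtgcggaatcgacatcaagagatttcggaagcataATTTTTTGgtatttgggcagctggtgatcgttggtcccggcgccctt
RNU12: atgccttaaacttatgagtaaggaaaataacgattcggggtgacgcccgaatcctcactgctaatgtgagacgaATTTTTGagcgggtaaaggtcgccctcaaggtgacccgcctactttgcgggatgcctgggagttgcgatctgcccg
RNU4ATAC: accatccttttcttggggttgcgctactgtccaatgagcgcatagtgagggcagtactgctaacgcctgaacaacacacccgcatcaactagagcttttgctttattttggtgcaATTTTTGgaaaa
RNU6ATAC: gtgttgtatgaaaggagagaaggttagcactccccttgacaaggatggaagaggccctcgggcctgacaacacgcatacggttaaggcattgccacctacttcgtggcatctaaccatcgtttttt
RNU7-1: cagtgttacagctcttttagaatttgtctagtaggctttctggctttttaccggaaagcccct

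The letters were searched on the transcript strand only, and no motif holds another within it. The U1 letters ACTTACCTG started at base 3 in 10 member sequences and were in 2.63% of 1900 snRNA transcripts of GENCODE. ATTTGTG was found in 11 members and 18.5% of the transcripts, ATTTTTTG in 6 and 1.32%, and ATTTTTG in 4 and 6.11%. ATTTTG was found in 3 members and 5.32% of the transcripts. Such a match is a description of letters and not of a bound site.

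The snRNA genes together were almost wholly measured in 1 library. Their summed counts in replicates 1 to 4 were 90598, 13, 48 and 7. In CPM, the counts scaled to 1000000 counted reads of a library, this was 1240, 0.762, 2.43 and 0.367, with a mean of 311 ± 619 (SD, n = 4) and of 1.19 ± 1.10 without replicate 1 (SD, n = 3). Replicates 2 to 4 all lay far below the first, whose level was 510 times that of the next highest library. Against the counts of replicates 2 to 4 pooled the ratio was 1019 (95% interval 804 to 1312, counting error only). Even in replicate 1 the snRNA genes took 0.124% of all counts (0.12 to 0.13%). In bulk RNA, fewer cells holding an RNA and less of it per cell cannot be told apart. How RNA was selected for the libraries is not given in the sources used here, and its part in the gap between them was not tested.

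**Figure D1:**
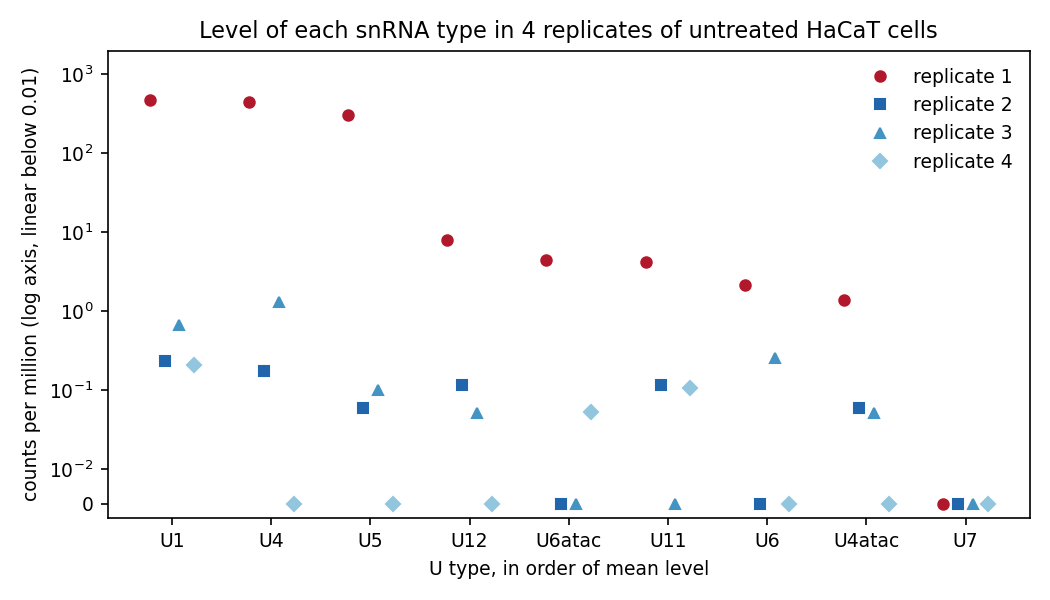
Level of each U type in CPM (vertical axis, logarithmic and linear below 0.01) in each of the 4 replicates, with types in order of their mean. U1, U4 and U5 reach 468, 444 and 307 CPM in replicate 1, all other points lie below 10, and U7 is at 0 in every library.

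U1, which starts spliceosome assembly, had the highest mean CPM. Its 13 genes summed to 34202 counts in replicate 1 and 4, 13 and 4 counts in replicates 2 to 4, or 468, 0.235, 0.658 and 0.210 CPM, with a mean of 117 ± 234 (SD, n = 4). Replicate 1 was 711 times the next highest library and 1245 times the other libraries pooled (815 to 2012). Within U1 the counts lay on few sequences. RNVU1-7 held 14005 counts in replicate 1, which was 40.9% of the U1 counts (40.4 to 41.5%), and none in replicates 2 to 4. It differs from RNU1-1 at 1 base only, so reads that do not cover this base cannot be assigned by their sequence. The share of RNVU1-7 is therefore uncertain beyond its interval, which holds for counting error only.

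Next came the classical U1 genes on the short arm of chromosome 1. RNU1-1 had 8581, 0, 5 and 0 counts in replicates 1 to 4, and RNU1-2 had 3997, 0, 1 and 0. RNU1-4 had 4017 counts in replicate 1 and RNU1-3 had 2077, both with none in the other libraries. RNVU1-18 had 1255, 0, 1 and 0 counts. These 5 genes, RNU1-1 to RNU1-4 and RNVU1-18, have the same 164 bases, a sequence that 8 snRNA genes of GENCODE share. Reads of such copies cannot be assigned by their sequence, and their counts in replicate 1 still differed 6.84-fold from lowest to highest, so the split between them is uncertain. Their sum of 19927 counts does not depend on the split among these 5, but may depend on how reads matching the other copies were counted. Together with RNVU1-7, which differs by 1 base, they held 33932 counts, or 99.2% of U1.

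The U1 variant genes that differ more from RNU1-1 were measured at a low level. The 6 genes with 6 to 26 differences held 247 counts in replicate 1, or 0.722% of U1, and 4, 6 and 4 counts in replicates 2 to 4. RNVU1-14, with 15 differences, had 145, 4, 3 and 2 counts and was the only member with a count in every library. RNVU1-6, also with 15 differences, had 58, 0, 3 and 2 counts. Outside replicate 1 these variants thus made up a larger part of the few U1 counts: RNVU1-14 held 0.424% of U1 in replicate 1 and 100%, 23.1% and 50.0% in replicates 2 to 4, from 4, 13 and 4 counts. RNVU1-15 had 44 counts and RNVU1-8 had 23, both in replicate 1 only, while RNVU1-1, RNVU1-3 and RNVU1-17 were at 0 in all libraries.

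U4, which keeps U6 inactive until the spliceosome is activated, was measured at about the level of U1. Its 2 genes summed to 32469, 3, 26 and 0 counts, or 444, 0.176, 1.32 and 0 CPM, with a mean of 111 ± 222 (SD, n = 4). Replicate 1 was 337 times the next highest library, and replicate 3 lay above replicates 2 and 4. RNU4-2 had 17126, 3, 18 and 0 counts, the most of any snRNA gene in replicate 1, and RNU4-1 had 15343, 0, 8 and 0. RNU4-2 therefore held 52.7% of U4 in replicate 1 (52.2 to 53.3%) and 69.2% in replicate 3, the latter from 26 counts. The genes lie 1190 bases apart on the minus strand of chromosome 12 and differ at 4 of 141 bases.

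U5, which aligns the exons and serves both spliceosomes, followed U1 and U4 in mean CPM. Its 5 genes summed to 22456, 1, 2 and 0 counts, or 307, 0.0586, 0.101 and 0 CPM, with a mean of 76.9 ± 154 (SD, n = 4). No library beyond the first exceeded 3 counts, the limit of detection used here, and against those libraries pooled the ratio was 5724 (1958 to 27758). In replicate 1 RNU5A-1 had 10771 counts (48.0% of U5), RNU5B-1 had 7173 (31.9%) and RNU5E-1 had 4395 (19.6%). RNU5F-1 and RNU5D-1, with 19 and 21 differences from RNU5A-1, had 72 and 45 counts. The 3 genes that differ by at most 14 bases were thus each above 1000 counts and the more divergent pair far below it.

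U6, the RNA of the catalytic centre, was low. Its 5 genes had 154, 0, 5 and 0 counts, or 2.11, 0, 0.253 and 0 CPM, with a mean of 0.590 ± 1.02 (SD, n = 4). Replicate 1 was 8.32 times replicate 3, and 23.6 times replicates 2 to 4 pooled (9.88 to 73.6). RNU6-8 had 97, 0, 1 and 0 counts and RNU6-2 had 38, 0, 1 and 0. RNU6-9 had 9 counts and RNU6-7 had 7, all in replicate 1, and RNU6-1 had 3 counts each in replicates 1 and 3. RNU6-1, RNU6-2 and RNU6-9 have the same sequence, as do RNU6-7 and RNU6-8, and these differ in the last base only, so the split among U6 genes is uncertain as well. The sequence of RNU6-1, RNU6-2 and RNU6-9 is shared by 7 snRNA genes of GENCODE. The U6 sum may therefore depend on how reads matching the other copies were counted.

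The files also hold 154 genes typed pseudogene with a U6 symbol. They had 143, 45, 26 and 32 counts in replicates 1 to 4, or 1.96, 2.64, 1.32 and 1.68 CPM, so they held nearly as many counts as the U6 genes in replicate 1 and more in every other library. With them added, U6 in replicate 1 was 1.54 times the next highest library, an alternative chosen after seeing the data. How reads that match several copies were counted is not given in the sources used here. U2 was represented by 19 pseudogenes, with 499, 10, 4 and 4 counts. The highest of them was RNU2-59P (chromosome 10, 103124607 to 103124792), with 385, 7, 2 and 0 counts, named after its values were seen.

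The minor spliceosome RNAs, each from 1 gene, lay far below U1, U4 and U5. RNU12, the counterpart of U2, had 584, 2, 1 and 0 counts, which was 7.99 CPM in replicate 1. RNU6ATAC, the counterpart of U6, had 325, 0, 0 and 1 counts and 4.45 CPM in replicate 1. RNU11, the counterpart of U1, had 308, 2, 0 and 2 counts and 4.21 CPM. RNU4ATAC, the counterpart of U4, had 100, 1, 1 and 0 counts and 1.37 CPM. In all of them replicate 1 was the highest and no other library exceeded 2 counts. The ratios of replicate 1 to the others pooled were 149 for RNU12 (50.7 to 724), 249 for RNU6ATAC (44.3 to 9846), 58.9 for RNU11 (22.8 to 217) and 38.2 for RNU4ATAC (10.3 to 320).

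Summed over these 4 types, the minor RNAs had 1317 counts in replicate 1 against 66825 for U1, U4 and U6, a ratio of 1.97% (1.86 to 2.08%). In replicates 2, 3 and 4 the ratio rested on 5 against 7, 2 against 44 and 3 against 4 counts, and was 71.4% (17.9 to 261%), 4.55% (0.534 to 17.4%) and 75.0% (11 to 443%). The mean was 38.2% ± 40.4 (SD, n = 4). The intervals of replicates 2 and 4 lie above that of replicate 1, while that of replicate 3 contains it. U2 is missing from this ratio on the major side.

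The U7 gene and the SNAR genes were not detected. RNU7-1 had 0 counts in all 4 libraries, which allows up to 0.0410 CPM in replicate 1 and 0.176, 0.152 and 0.157 CPM in replicates 2 to 4 at 3 counts. RNU7-1 lies on the plus strand of chromosome 12 (7052979 to 7053041 in hg19) within the bounds of C12orf57 on the same strand, a gene with 4242, 633, 1337 and 696 counts. How reads from a stretch shared by genes were assigned is not given in the sources used here. The 25 pseudogenes of U7 had 22, 8, 2 and 8 counts in replicates 1 to 4. All 28 SNAR genes were at 0 in every library.

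In the order of mean CPM the types were U1, U4, U5, U12, U6atac, U11, U6, U4atac and U7. With pseudogene rows added to their types, U6 moved up to place 4, between U5 and U12, with 2.49 against 2.12 CPM for U12, an alternative chosen after seeing the data. Each type was compared with the next within replicates as a difference of log2(CPM + 1), by a two-sided exact sign-flip permutation test that cannot fall below p = 0.13 with 4 replicates. The exact p of the 8 neighbours lay between 0.25 and 1 (adjusted 0.8 to 1), and no value of this test could have reached 0.05. Such a p does not show that neighbours are alike, since most values outside replicate 1 rest on a few counts.

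Within replicate 1 the intervals, for counting error only, lay above 1 for most neighbours. The order was set by mean CPM, which replicate 1 largely sets, so the direction of these ratios in counts is not a separate result. U5 exceeded U12 38.5-fold in counts, the widest gap among types with counts. U4 exceeded U5 1.45-fold (1.42 to 1.47), U12 exceeded U6atac 1.80-fold (1.57 to 2.06) and U11 exceeded U6 2.0-fold (1.64 to 2.44). U6 exceeded U4atac 1.54-fold (1.19 to 2.0). The interval of U6atac to U11 included 1 (ratio 1.06, 0.90 to 1.24). U1 exceeded U4 1.05-fold in counts (1.04 to 1.07) but was 0.915 of it per base of gene length (0.901 to 0.929), so this order turns with the scale. On the per-length scale of TPM, the counts per length scaled to 1000000 per library, U4 stood at 2905, U1 at 2657, U5 at 2438 and U12 at 49.9 in replicate 1. U6atac followed at 33.1 TPM, U11 at 29.1, U6 at 18.3 and U4atac at 9.80.

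RNAs that are base-paired in one particle were not measured at equal levels. U4 exceeded its partner U6 211-fold in counts of replicate 1 (180 to 249) and 158-fold per length (135 to 187). The U6 pseudogenes held 143 counts in replicate 1, against 154 of the U6 genes, and the U4 pseudogenes held 2. Adding them would lower the ratio, and its interval does not cover how reads were split between the genes, other copies of the same sequence and pseudogenes. In replicate 3, the only other library with counts of both U4 and U6 genes, the count ratio was 5.20 (1.96 to 17.3). In the minor spliceosome the direction was the opposite, as U6atac exceeded U4atac 3.25-fold in counts of replicate 1 (2.59 to 4.11) and 3.38-fold per length (2.69 to 4.27). U6atac also exceeded U6 itself in replicate 1, by 2.11-fold in counts (1.74 to 2.57), but had 0 counts against 5 in replicate 3. With pseudogenes added the ratio in replicate 1 rested on 325 against 297 counts and its interval included 1 (1.09, 0.932 to 1.29). U12 and U11, which form a di-snRNP, stood at 1.90 to 1 in counts (1.65 to 2.18). In replicates 2 to 4 neither minor pair exceeded 2 counts for either RNA.

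**Figure D2:**
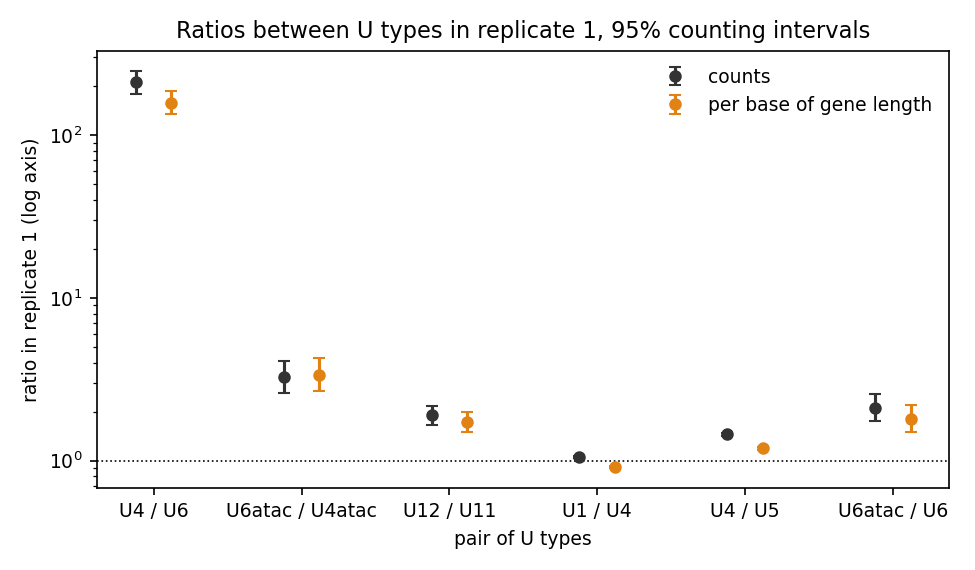
Ratios between pairs of U types in replicate 1 (vertical axis, logarithmic) from counts and per base of gene length, with 95% intervals for counting error and a dotted line at 1. Pseudogenes are left out. U4 to U6 stands at 211 in counts, the minor counterpart U6atac to U4atac at 3.25, and U1 to U4 crosses the line between the scales.

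By gene, detection differed between the libraries. With more than 3 counts taken as detected, replicates 1 to 4 had 25, 1, 3 and 0 members detected, and no member passed in all 4. RNVU1-14 was the one in replicate 2, and RNU1-1, RNU4-1 and RNU4-2 were those in replicate 3. In any library 25 of 58 members were detected, against 23712 of all 44591 genes. The limit equals 0.0410 CPM in replicate 1 and 0.152 to 0.176 CPM in the others. Shares of all genes for each library were not computed, so the counts by library are not read as particular to the members. Of the 58 members, 25 had their highest CPM in replicate 1, all of them among the 30 genes with a U type, against 20.1% of all 44591 genes. Both sets include genes that were not detected in any library, and the share among detected genes was not computed. Of the 30, 10 were detected in replicate 1 and at 0 in every other library, for which no share of all genes was computed. The 11 genes above 1000 counts in replicate 1 held 88740 counts, or 97.9% of all snRNA counts of that library. U1, U4 and U5 together held 98.4%.

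**Figure D3:**
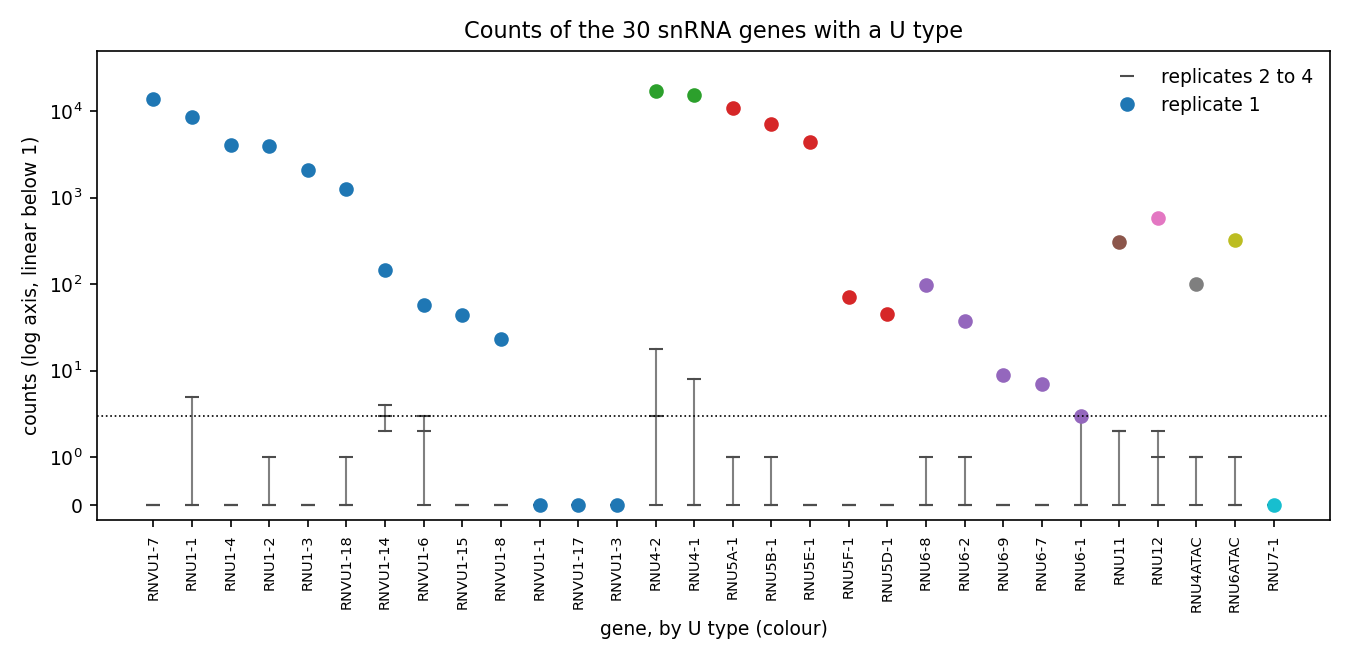
Counts of the 30 genes with a U type (vertical axis, logarithmic and linear below 1), coloured by type, with filled points for replicate 1, short dashes for replicates 2 to 4 and a dotted line at 3 counts. The leading genes of U1, U4 and U5 exceed 1000 counts in replicate 1, and the highest dash, that of RNU4-2, is at 18.

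In the genome (hg19, as in the deposited files) 17 of the 30 genes lie on chromosome 1. RNU1-1 lies at 16840617 to 16840780 on the minus strand and RNVU1-7 at 147511004 to 147511167 on the minus strand of that chromosome. RNU4-2 lies at 120729566 to 120729706 on chromosome 12, and RNU5A-1 at 65588389 to 65588505 on the plus strand of chromosome 15. RNU12 lies at 43011251 to 43011399 on chromosome 22 and RNU6ATAC at 137029562 to 137029686 on chromosome 9. RNU11 lies at 28975112 to 28975246 on chromosome 1. Another member lay within 10 kb of 8 of the genes. RNU5A-1 and RNU5B-1, 8509 bases apart on the same strand, had 10771 and 7173 counts in replicate 1, and RNU6-7 and RNU6-8, 1011 bases apart on opposite strands, had 7 and 97.

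The bounds of 5 genes overlap those of another gene, RNU7-1 among them. RNU4ATAC lies at 122288456 to 122288585 on chromosome 2 within CLASP1, which is on the opposite strand and had 5407, 1788, 1138 and 1502 counts, and also within a gene without a symbol on its own strand. RNU5F-1 lies within C1orf228 on the opposite strand, with 70, 11, 1 and 4 counts for that gene. RNU6-1 and RNVU1-3 overlap genes with at most 6 counts in any library. Whether counting used the strand is not given in the sources used here, and the part of these overlaps in the counts was not tested.

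Other short RNAs set the snRNA genes beside a wider difference between the libraries. RN7SK, a regulator of transcription elongation that is typed snRNA but left out of the members, had 2861031, 790, 708 and 186 counts, which was 96.9% of the counts of all snRNA rows in replicate 1. Its level in replicate 1 was 845 times the next highest library, against 510 for the snRNA genes. The 4 Y RNA genes stood at 678 times, which rests on 4 counts in the next highest library. RNase MRP RNA stood at 390 times, telomerase RNA at 149, from 50 counts in the next highest library, and guide RNAs at 123. The RNA of the signal recognition particle stood at 63.2 times, RNase P RNA at 51.6 and small nucleolar RNAs at 36.4. The 70 genes of the HIST1 to HIST4 groups, whose mRNAs also lack a poly(A) tail as a rule, stood at 52.6 times.

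Some classes were closer between the libraries. Transfer RNA genes had 1.30 times, and the 241 U-type pseudogenes 1.97 times, the CPM of the next highest library in replicate 1. The pseudogenes differed by type, and those of U2 stood at 6.83 CPM in replicate 1 and 0.586 in replicate 2. Those of U6 stood at 1.96 and 2.64 CPM in these libraries and those of U1 at 0.452 and 1.06. Protein-coding genes took 76.1% of the counts in replicate 1 and 95.3 to 96.4% in the others. The 19 ribosomal RNA rows had 0 counts in replicate 1 and 197280 to 241741 counts in replicates 2 to 4, or 1.03 to 1.22% of each library. The snRNA level was thus highest in the library where other short RNAs were highest and the ribosomal rows were at 0, and the part of these differences in the snRNA result was not tested.

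**Figure D4:**
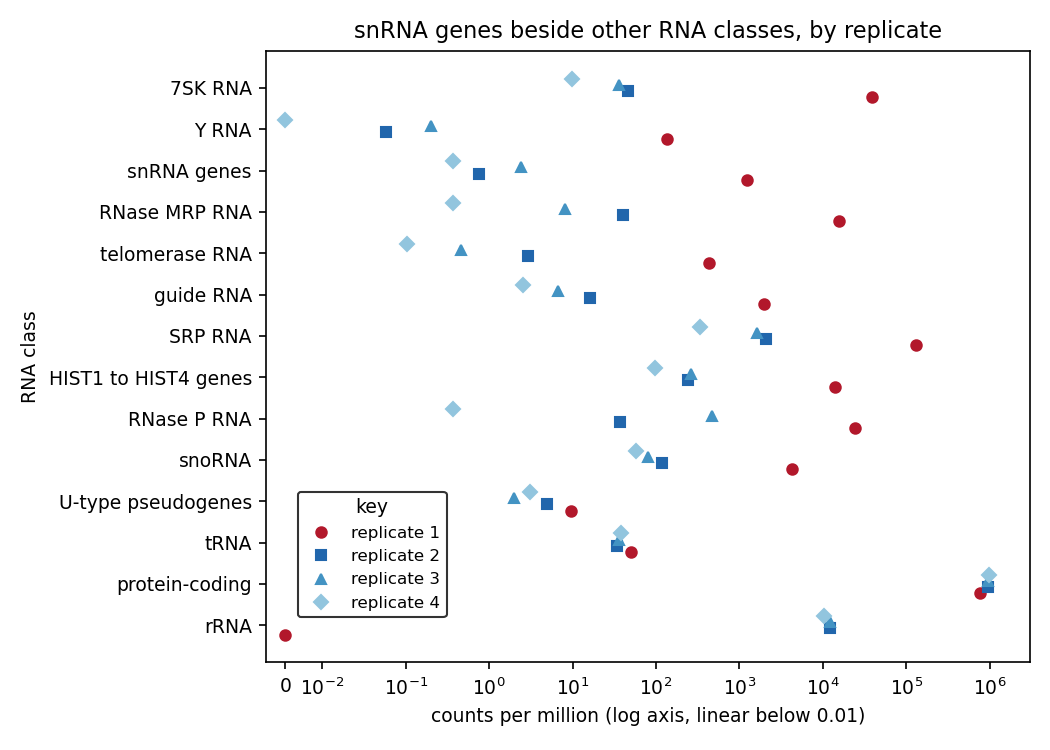
Summed level of the snRNA genes and other RNA classes in CPM (horizontal axis, logarithmic and linear below 0.01) in each of the 4 replicates. The snRNA genes, RN7SK and the Y RNAs lie at least 510 times higher in replicate 1 than in any other library, protein-coding genes lie close together, and ribosomal RNA rows are at 0 in replicate 1. The Y RNAs have at most 4 counts in any library but replicate 1.

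The proteins that build and serve the snRNPs are encoded by mRNAs, and 99 such genes in 10 lists were examined. All 99 had a mean TPM above 1. Levels are given as TPM over protein-coding genes only, since other classes took different shares of each library, and each list by the median over its genes in a library. The median over all 11876 protein-coding genes with a mean TPM above 1 was 23.4 ± 2.89 (SD, n = 4). In replicate 1, 79 of the 99 genes were within 2-fold of the mean of the other replicates on the log2(TPM + 1) scale, against 63.1% of the 11876 protein-coding genes.

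The lists of the major particle proteins had the highest medians. The 3 U1 proteins had a median of 149 ± 34.2 TPM, the 11 U2 proteins of 108 ± 6.91 and the 7 proteins of the Sm ring of 107 ± 19.3 (SD, n = 4 each). The Sm ring is loaded on the spliceosomal snRNAs other than U6 and U6atac, and SNRPB, one of its members, had 732, 852, 1089 and 680 TPM in replicates 1 to 4. The 8 U5 proteins stood at 96.2 ± 8.71 and the 13 U4 and U6 proteins at 68.7 ± 8.98 TPM. Replicate 1 was the lowest library for the U1 and U5 proteins and the highest for the U4 and U6 proteins. SNRNP70, which binds U1, had 146, 178, 310 and 282 TPM, and PRPF8, the core protein of U5, had 99.9, 191, 121 and 303.

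The 8 proteins of the minor spliceosome had a median of 24.2 ± 3.62 TPM (SD, n = 4), close to the median of all protein-coding genes and below every major list in each library. RNPC3, which bridges U11 and U12, had 20.2, 8.77, 4.78 and 10.3 TPM, and SNRNP25 had 62.1, 60.9, 87.0 and 64.8. The 12 Integrator genes examined, whose complex cleaves the 3′ ends of snRNA precursors, stood at 30.1 ± 4.56 TPM. The 12 factors of snRNA gene transcription stood at 20.4 ± 2.39 and the 21 genes of export, Sm loading, cap and 3′ end maturation at 28.8 ± 3.69. The 4 genes of U7 and histone 3′ ends had 9.94, 37.8, 43.1 and 26.0 TPM as their medians, lowest in replicate 1.

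The other partner genes differed by 2-fold or more in replicate 1, with 14 lower and 6 higher, and those named here were chosen after their values were seen. The shares of all protein-coding genes that were lower and higher were not computed, so nothing is read from this direction. LSM10, of the U7 ring, had 7.10, 60.2, 74.5 and 44.2 TPM. SF3A2, of the U2 particle, had 12.8, 221, 170 and 149, and SF3B4 had 26.9, 197, 210 and 160. USB1, which trims the 3′ end of U6, had 4.03, 47.9, 35.4 and 49.7. INTS1, of Integrator, had 27.6, 127, 80.5 and 134, and SNAPC4, of the complex that binds snRNA promoters, had 10.7, 61.1, 45.5 and 30.6. In the other direction, SF3B1 of the U2 particle had 241, 99.9, 78.1 and 101 TPM and INTS6 had 33.1, 10.2, 7.52 and 10.8. LARP7, which binds RN7SK and U6, had 40.0, 19.8, 6.85 and 19.8.

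**Figure D5:**
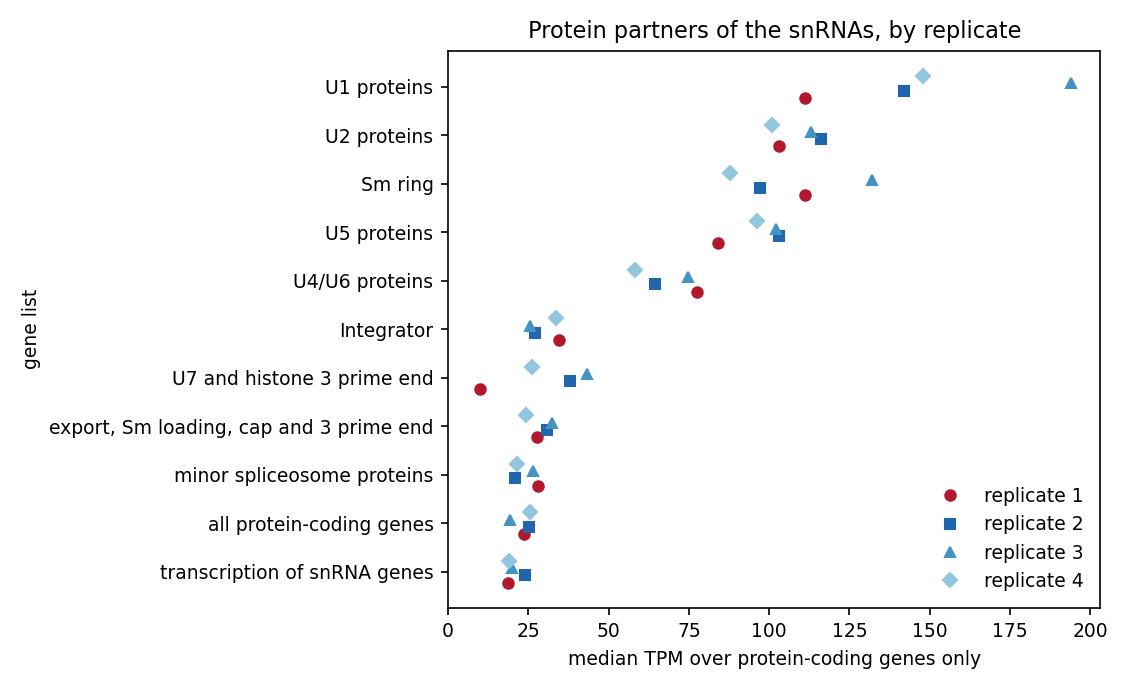
Median level of 10 lists of protein partner genes and of all protein-coding genes (horizontal axis, TPM over protein-coding genes only) in each of the 4 replicates. Major particle proteins lie at 58.3 TPM or more in every library, the minor spliceosome proteins between 20.7 and 28.0, and replicate 1 is lowest for the U7 and histone list.

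Markers of other cell types summed to far lower levels than those of keratinocytes. On the same TPM scale the 9 keratinocyte markers summed to 12403 to 18107 in the 4 libraries, the 4 melanocyte markers to 1.36 to 3.52 and the 5 fibroblast markers to 5.20 to 9.60. The 3 endothelial markers summed to 0.859 to 2.36. Of the melanocyte markers 3 of 4 exceeded 3 counts in some library and 1 in all. All 5 fibroblast markers did so in some library and 1 in all, and of the endothelial markers 2 of 3 in some and none in all. TYR and PECAM1, defining markers of melanocytes and endothelial cells, were at 0 in every library, while no fibroblast marker was.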

How the data were processed

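RNA-seq of 4 untreated HaCaT replicates, 1 group by their labels, was analysed. The authors deposited raw read counts per gene with gene lengths, RPKM for replicates 1 and 2 and TPM for replicates 3 and 4. The submitters' processing notes name hg19, HISAT2, HISAT, TopHat2 and Bowtie2, and their roles and the counting rule are not given in the sources used here. The deposited RPKM and TPM values equalled those recomputed from counts and lengths and were not used further.

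From the deposited counts, CPM of all counted reads and, because the deposited units differ between replicates, TPM were computed. Total counts were 73082279, 17056035, 19745170 and 19083836, where 3 counts, the limit of detection, equal 0.0410, 0.176, 0.152 and 0.157 CPM. Genes with a U type were grouped by symbol or description. Ratios and shares were given 95% Clopper-Pearson intervals. These hold for counting error alone, as no molecular identifiers tell PCR copies of a molecule apart. Neighbouring U types were compared by two-sided exact sign-flip permutation tests, adjusted by Benjamini-Hochberg over 8 pairs. The study calls the replicates biological, but the labels do not say that they are separate cultures, so these p-values measure the spread between samples, which may be technical. With 1 group, no test across genes was run. Some sequences and markers are not reported here.

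The members and lists were chosen with earlier results of these data known. Named genes were the leading gene of each U type, the 20 with the highest mean CPM, RNU11, RNU12, RNU4ATAC, RNU6ATAC and RNU7-1, and members whose share of their type differed by more than 20 percentage points between replicates. Other genes named are said to be chosen after their values were seen, are all members of a list or a type, or overlap a member. The motif ATTTTTTG and the sums with pseudogenes were added after seeing the data. Alternatives were scaling to protein-coding counts, TMM (edgeR 4.0.16), DESeq2 1.42.0 size factors, TPM, a pseudocount of 0.1 in place of 1, other detection limits (any count, more than 10 counts, a CPM above 0.5) and leaving out each replicate. The sums, tests and intervals were tested on simulated data. R 4.3.3 and Python 3.11.15 were used, the latter with SciPy 1.17.1, pandas 2.3.3, NumPy 2.4.6 and matplotlib 3.10.9.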

Additional observations from a re-analysis of the deposited data

Results flagged for a closer look

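A library was taken as set apart where its gap to the nearest other replicate, divided by the range of all 4, exceeded 0.83. This is Dixon's 95% critical value for 4 samples, which chance alone passes in about 1 of 20 groups of normally distributed values. Many quantities here are counts near 0 in replicates 2 to 4, where that rate need not hold. A gene at 0 in those libraries scores 1.00 at any level in replicate 1. Of 67 quantities tested, 43 passed, and replicate 1 was the library set apart in all 43, which are not independent of each other. Of all 23712 genes with more than 3 counts in any library, 8.98% passed with replicate 1 the highest. All 10 totals and types with counts passed, with replicate 1 the highest. Gap over range was 0.998 for all snRNA genes, 0.999 for RN7SK and U1, 0.997 for U4, 1.000 for U5 and 0.988 for U6atac. It was 0.985 for U12, 0.972 for U11, 0.957 for U4atac and 0.880 for U6, the lowest of the types.

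Among named snRNA genes 19 of 20 passed with replicate 1 the highest. They were chosen by a mean CPM that replicate 1 sets, so nothing is read from this count. The value was 1.00 or 1.000 for RNVU1-7, RNU1-3, RNU1-4, RNU5A-1, RNU5D-1, RNU5E-1 and RNU5F-1, 0.999 for RNU1-2 and RNU5B-1 and 0.998 for RNU1-1 and RNU4-1. It was 0.997 for RNVU1-18, 0.996 for RNU4-2, 0.988 for RNU6ATAC, 0.985 for RNU12, 0.972 for RNU11, 0.962 for RNU6-8, 0.957 for RNU4ATAC and 0.931 for RNVU1-14.

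Among other RNA classes replicate 1 was the highest for Y RNA (0.999), RNase MRP RNA (0.997), telomerase RNA (0.994), guide RNA (0.993), HIST1 to HIST4 genes (0.988), the signal recognition particle RNA (0.987), small nucleolar RNA (0.986), RNase P RNA (0.981) and vault RNA (0.924). It was the lowest for protein-coding genes (0.947) and ribosomal RNA rows (0.844). Total counts also set replicate 1 apart as the deepest library (0.952). In TPM over protein-coding genes none of the 11 medians of partner lists and of all protein-coding genes passed. In TPM over all genes, added after seeing the data, replicate 1 was lowest for the U5 proteins (0.972) and the U2 proteins (0.890). The 9 other medians did not pass, nor did the ratio of minor to major RNAs.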

How the results depend on the processing

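Replicate 1 set both the means and their spread: without it the mean was 1.19 CPM for all snRNA genes, 0.368 for U1, 0.498 for U4 and 0.0533 for U5, against 311, 117, 111 and 76.9 with it. On the TPM scale the means over 4 replicates were 2048 for all snRNA genes, 668 for U1, 731 for U4, 610 for U5, 5.73 for U6, 8.22 for U11, 13.1 for U12, 2.89 for U4atac and 8.53 for U6atac, in another unit than CPM, and RNU4-2 held 53.4% of U4 rather than 52.8% of the counts of all 4 replicates. With pseudogenes added, U6 had a mean of 2.49 CPM, and the ratio of replicate 1 to the next highest library fell to 220 for all snRNA genes, 363 for U1 and 1.54 for U6. Against the mean of replicates 2 to 4 that ratio was 1045 for all snRNA genes and 893 for U4.

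The test of neighbours in the order of U types could not pass 0.05 under any setting, so its p-values say nothing about stability. U1 less U4, -0.02 on the log2 scale, became 0.27 with a pseudocount of 0.1, 0.23 in TPM, 0.38 with pseudogenes added and 0.14 without replicate 3, where the range of leave-one-out values was -0.11 to 0.14. Without replicate 1, U5 less U12 was -0.0033 (range -0.0033 to 1.72) and U11 less U6 -0.01 (range -0.01 to 0.35). With pseudogenes added, U11 less U6 was -1.07 and U4atac less U7 was -0.03. Leaving out 1 replicate at a time, members detected ranged from 4, without replicate 1, to 25. The share of the leading gene over the replicates left ranged from 0 to 40.9% for RNVU1-7, 52.8 to 72.4% for RNU4-2, 48.0 to 66.7% for RNU5A-1 and 20 to 63.0% for RNU6-8, where the values without replicate 1 are 0, 72.4, 66.7 and 20%. 1 member was detected in every replicate with any count above 0, against 0 with more than 3. Over protein-coding genes only, the medians of the U4 and U6 proteins and of the minor spliceosome proteins were 68.7 and 24.2 TPM, against 50.2 and 17.5 over all genes. The cause of these changes was not tested.

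No value was available with genes above 3 counts in every replicate, as no member remained, or for the minor to major ratio from leading genes only, as the leading major genes had 0 counts in replicate 4. No paired analysis was possible because there is only 1 group. In replicates 2 to 4 each U type rests on at most 26 counts, and these libraries were less deep by 3.70-fold or more. CPM is already scaled to the total counts of each library, and the part of depth in the difference was not tested.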
